A study of Bos taurus with 10 samples.

Results

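Mitochondrial ribosomal protein genes are the nuclear genes, named MRPL or MRPS followed by a number, whose products are carried into mitochondria and built into the mitochondrial ribosome. They were taken here by symbol alone, which gave 78 of the 28700 genes that stand on a single line of the deposited expression table. None was left out for standing on several lines, and all 78 had a mean of at least 1 FPKM over the libraries (fragments scaled by gene length and library size), so all 78 were tested. By symbol, 49 are MRPL genes and 29 are MRPS genes.

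The libraries were poly(A) RNA of whole bovine (Bos taurus) embryos whose zygotes had been given siRNA against H1FOO, a linker histone made in oocytes (knockdown, KD), or negative control siRNA (NC). They were taken 4 days post insemination at the 8/16-cell stage, with 2 NC and 2 KD libraries, and 5.5 days post insemination at the morula stage, with 3 NC and 3 KD libraries. All 4 groups had therefore been injected, and no uninjected embryos were used here. The labels do not say whether libraries of a group came from separate collections, so a p-value here speaks only of the spread among these libraries, which may be technical.

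The mitochondrial ribosome translates only the messages of the mitochondrial genome, which encode core subunits of the respiratory chain and of ATP synthase. Its large subunit joins amino acids and its small subunit reads the message; many of its proteins descend from bacterial ones, and others are particular to mitochondria. In animals every mitochondrial ribosomal protein is nuclear-encoded and made in the cytosol, so the supply of these proteins depends on nuclear transcription, which the bovine embryo takes over from the oocyte's stored messages at about the 8/16-cell stage. The 13 protein genes of the mitochondrial genome itself are listed at 0 in every library of this table, so the messages that this ribosome translates were not measured here.

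The symbols do not fully match the places of the proteins. The products of MRPS30 and MRPS18A sit in the large subunit, and that of MRPS36 belongs to the 2-oxoglutarate dehydrogenase complex and not to the ribosome. By place in the ribosome, 51 members belong to the large and 26 to the small subunit. Of the large-subunit members 30 hold the place of a bacterial ribosomal protein and 21 hold a place particular to mitochondria, and of the small-subunit members 16 and 10. MRPS18A and MRPS18B, related like MRPS18C to a bacterial protein, are counted with those in a place particular to mitochondria. All 78 symbols are listed as protein coding in RefSeq (assembly ARS-UCD2.0), and 23 of them (29.5%) overlap another annotated gene there, against 36.8% of the 11268 tested genes that RefSeq lists. No sequence and no coordinate is given, since the table's values were made on other builds.

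As checks on the libraries, summed FPKM ranged from 345464 to 669836, between 11103 and 11872 genes had at least 1 FPKM in a library, and libraries of a group correlated at r = 0.938 to 0.971 across genes. H1FOO stood at 50.8 and 10.8 FPKM in the NC and 0.649 and 0.0736 FPKM in the KD 8/16-cell libraries (log2 difference -4.22, SE 0.60, limma adjusted p = 0.104), and at 0.294, 1.05 and 2.17 FPKM in the NC and 0.0610, 0.191 and 0.251 FPKM in the KD morula libraries (-0.80, SE 0.49, limma adjusted p = 0.374). The summed level of 8 embryo markers was 392 to 520 FPKM in the NC and 336 to 384 FPKM in the KD 8/16-cell libraries, which did not overlap, and 738 to 1042 FPKM in the NC and 507 to 838 FPKM in the KD morula libraries, which did. That of 10 oocyte markers was 149 to 259 FPKM in the NC and 125 to 166 FPKM in the KD 8/16-cell libraries, and 16.0 to 27.4 FPKM with the control and 15.9 to 26.7 FPKM with the knockdown in morulae. Of 14 cumulus and granulosa markers the sums were 91.7 and 93.9 FPKM in the NC and 138 and 139 FPKM in the KD 8/16-cell libraries, and 65.4 to 83.9 FPKM in the NC and 58.6 to 109 FPKM in the KD morula libraries; FSHR was at 0 in all libraries and LHCGR and PTX3 were under 1 FPKM. Sums of 8 sperm markers were 17.5 to 20.0 FPKM in the NC and 13.2 to 13.8 FPKM in the KD 8/16-cell libraries, and 22.9 to 28.4 FPKM against 15.2 to 24.3 FPKM in morulae, with PRM1, ODF1, AKAP4 and SMCP under 1 FPKM in all. Sums of 7 blood markers were 99.4 to 119 FPKM in the NC and 95.6 to 114 FPKM in the KD 8/16-cell libraries, and 107 to 158 FPKM against 135 to 240 FPKM in morulae. PTPRC, CD3E, LYZ and TYROBP were under 1 FPKM in all. Only 1 of the 7 blood markers had a mean of at least 1 FPKM over the libraries, so these sums are mostly 1 gene. Of the sperm markers 3 of 8 had such a mean, and of the cumulus and granulosa markers 9 of 14. The part of any of these markers' cells in the values below was not tested. In whole embryos, fewer cells of a type and less RNA per cell cannot be told apart.

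The members were expressed at moderate to high level in every group. Their mean over the 10 libraries had a median of 48.9 FPKM and ran from 10.9 FPKM for MRPL54 to 208.6 FPKM for MRPL41, both large-subunit proteins particular to mitochondria. After MRPL41 the highest means were those of MRPS25 (127 FPKM), MRPL40 (126 FPKM), which belongs to the central protuberance of the large subunit, MRPL27 (122 FPKM) and MRPL17 (118 FPKM). After MRPL54 the lowest were those of MRPS21 (12.8 FPKM), MRPL13 (17.9 FPKM), MRPL14 (18.04 FPKM) and MRPL53 (20.1 FPKM). Messages for proteins of 1 complex thus covered a wide range of FPKM, which is a level per length.

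MRPL41 stood at 172 and 209 FPKM in the NC and 238 and 185 FPKM in the KD 8/16-cell libraries, and at 248, 127 and 271 FPKM in the NC and 242, 174 and 219 FPKM in the KD morula libraries. The 4 groups overlapped, and the library at 127 FPKM, NC morula replicate 2, was the lowest of all 10. The ratio of the highest to the lowest library had a median of 2.12 over the members. It was largest for MRPL3 (4.54), MRPS36 (3.80), MRPL43 (3.73), MRPL52 (3.36), MRPL33 (3.20) and MRPL54 (3.16), and smallest for MRPL39 (1.497), MRPS9 (1.51), MRPS24 (1.52), MRPL9 (1.53) and MRPS27 (1.55).

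Levels of the whole family varied between libraries of the same group. The members' summed level was 4766 and 4168 FPKM in the NC and 5482 and 4359 FPKM in the KD 8/16-cell libraries. In morulae it was 5159, 3353 and 5456 FPKM with the control and 4422, 3715 and 4548 FPKM with the knockdown. The lowest of these sums was that of NC morula replicate 2, which was the lowest of its group for 74 of 78 members, and KD morula replicate 2 was the lowest of its group for 55. At the 8/16-cell stage replicate 1 was higher than replicate 2 for 65 members in NC and for 63 in KD. The mean log2(FPKM + 1) of the 79 cytosolic ribosomal protein genes was likewise lowest in NC morula replicate 2, at 9.10, with KD morula replicate 2 next at 9.11 and the other libraries at 9.38 to 9.99. As a share of summed FPKM, leaving out MIR2887-1, MIR2887-2 and RN18S1, the members held 1.12% and 1.06% in the NC and 1.14% and 1.07% in the KD 8/16-cell libraries, and 1.19%, 0.979% and 1.22% in the NC and 1.13%, 1.05% and 1.10% in the KD morula libraries. The groups overlapped on this share at both stages and between them. The 3 genes left out have very large values that are uneven between the treatments. MIR2887-1 (45346 and 18127 FPKM) and MIR2887-2 (136037 and 18127 FPKM) were above 0 only in the KD 8/16-cell libraries. RN18S1, a ribosomal RNA gene, stood at 2704, 2983 and 8611 FPKM in the NC and 9053, 8553 and 11581 FPKM in the KD morula libraries (log2 difference 1.23, limma adjusted p = 0.194, 0.0386 with the replicate block). Their part in the members' values was not tested beyond the rescalings given below.

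**Figure D1:**
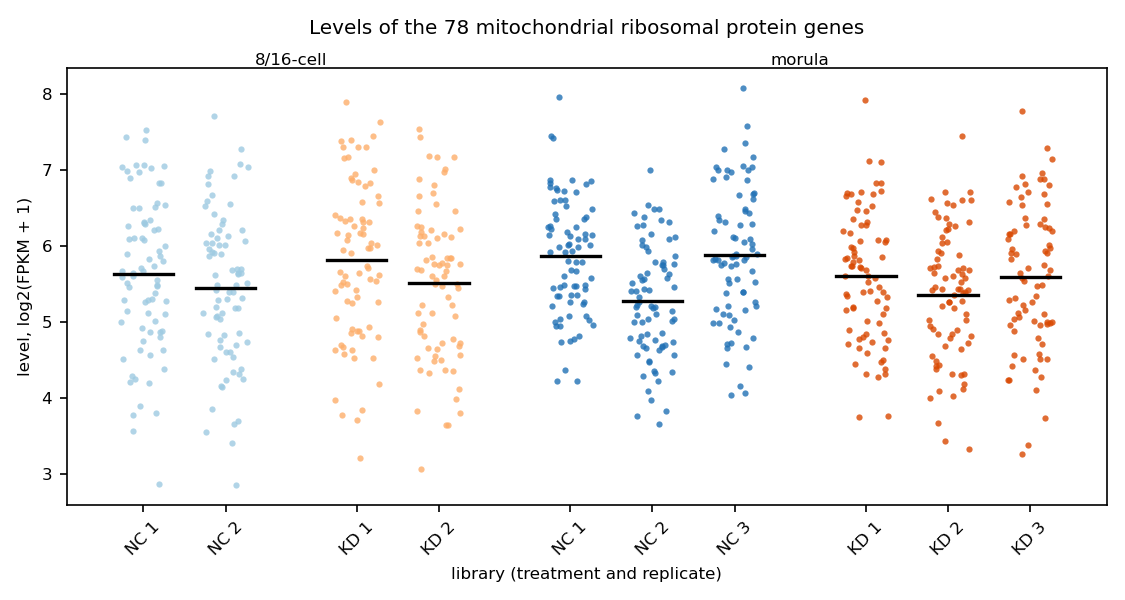
Level of each of the 78 members, as log2(FPKM + 1), in each of the 10 libraries; a point is a gene and the bar is the mean over the members. The bars lie between 5.27 and 5.88, and the lowest is that of NC morula replicate 2.

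From the 8/16-cell stage to the morula, the family's summed level in control embryos overlapped, while single members moved in both directions. In NC embryos 11 of 78 members rose and 3 fell (limma, adjusted p under 0.05 over 11761 genes, 2 against 3 libraries), where 12.6% of all tested genes rose and 18.2% fell. The members' median log2 difference was 0.10, with 45 positive and 33 negative, where 45.6% of all genes tested were positive (median -0.07). A total of 16 members had morula values all above the 8/16-cell values, against 24.3% of all genes tested, and 8 all below them, against 32.6%. The deposited columns of the stages were probably made apart (see the processing), and their part in differences between the stages was not tested.

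MRPL3, a conserved large-subunit protein near the site where peptide bonds form, changed most. It stood at 10.9 and 9.63 FPKM in the 8/16-cell and at 43.7, 24.4 and 30.9 FPKM in the morula NC libraries. Every morula library was above both 8/16-cell libraries, and the log2 difference was 1.56 (SE 0.24, limma adjusted p = 0.0016), a 2.94-fold rise on the log2(FPKM + 1) scale. MRPL3 overlaps a pseudogene in RefSeq, and how reads were divided between them is unknown.

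MRPL43 and MRPL54, large-subunit proteins particular to mitochondria, followed. MRPL43 stood at 13.0 and 10.7 FPKM in the 8/16-cell and 40.1, 24.6 and 30.6 FPKM in the morula NC libraries (log2 difference 1.33, SE 0.22, limma adjusted p = 0.0023). MRPL54, lowest of the family by mean, stood at 6.27 and 6.22 FPKM and at 19.6, 11.7 and 15.8 FPKM (1.18, SE 0.23, adjusted p = 0.0044). In both, the stages were well apart although NC morula replicate 2 was the lowest of its group. MRPL3, MRPL43 and MRPL54 passed under all 21 alternatives run.

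MRPS18A is 1 of 3 relatives of a single bacterial protein, and its product alone among them joined the large subunit. It stood at 27.0 and 27.9 FPKM in the 8/16-cell and at 63.7, 41.8 and 58.6 FPKM in the morula NC libraries (log2 difference 0.95, SE 0.20, limma adjusted p = 0.0068). MRPS18B stood at 57.7 and 51.0 FPKM and at 50.2, 31.4 and 56.8 FPKM (-0.27, SE 0.23, adjusted p = 0.4), and MRPS18C at 113 and 93.0 FPKM and at 96.6, 78.9 and 101 FPKM (-0.16, SE 0.20, adjusted p = 0.566). The differences of these small-subunit relatives were within the spread of their libraries, while the MRPS18A groups did not overlap.

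The other rises were smaller. MRPL50 had a log2 difference of 0.87, MRPL38 of the central protuberance 0.83, MRPS33 of the small subunit 0.82, MRPL10 at the base of the stalk, where elongation factors dock, 0.73, and MRPS5 of the small subunit 0.60. MRPL14 (0.62) and MRPS10 (0.52), named after their values were seen, complete the 11. All 11 had morula NC libraries that lay above both 8/16-cell libraries.

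The 3 that fell were abundant members. MRPL17, at the exit of the tunnel through which the new protein leaves, stood at 183 and 154 FPKM in the 8/16-cell and at 106, 66.7 and 97.8 FPKM in the morula NC libraries (log2 difference -0.92, SE 0.21, limma adjusted p = 0.0093). MRPL37, particular to mitochondria, stood at 168 and 135 FPKM and at 80.8, 57.6 and 116 FPKM (-0.88, SE 0.26, adjusted p = 0.0264). MRPS7, a conserved protein of the small subunit's head, stood at 130 and 112 FPKM and at 62.4, 53.5 and 89.2 FPKM (-0.84, SE 0.21, adjusted p = 0.0142). None of the 3 had overlapping stages; MRPS7 overlaps MIF4GD in RefSeq. The next lower values, of MRPL22 (-0.67, adjusted p = 0.0733) and MRPS6 (-0.66, adjusted p = 0.121), did not pass.

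**Figure D2:**
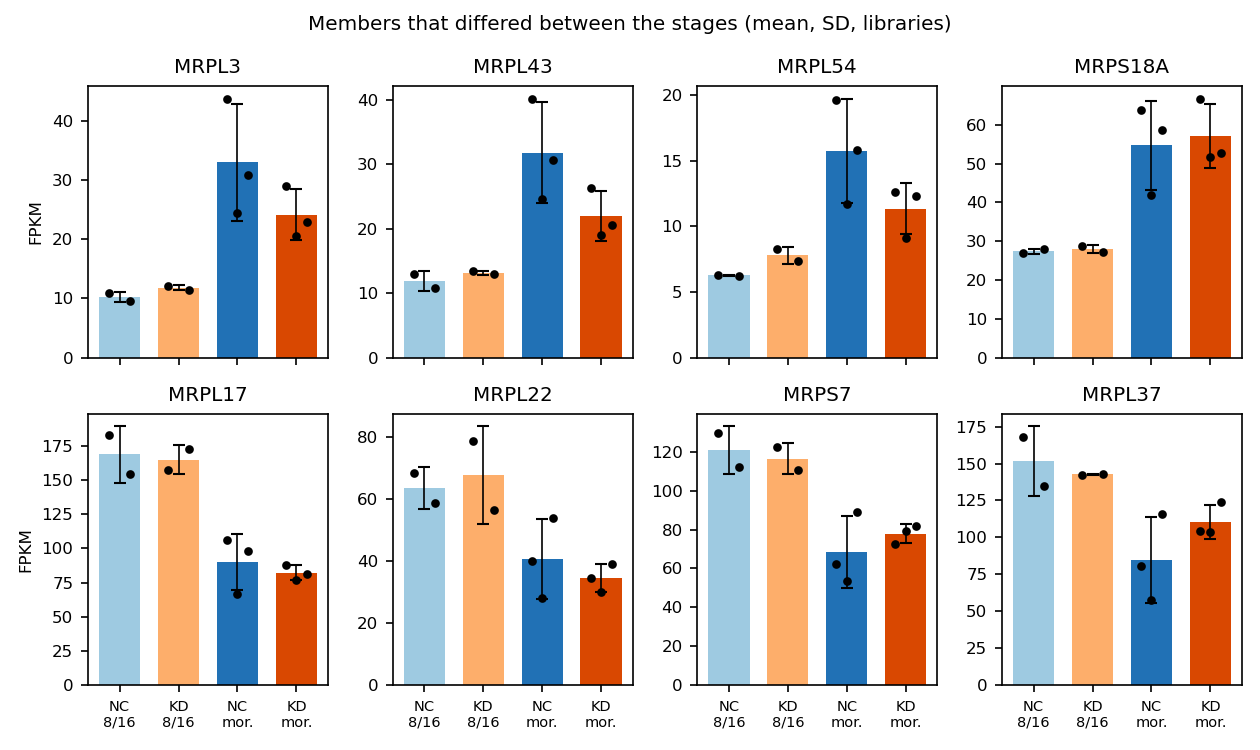
FPKM of 8 members that passed between the stages in NC or KD embryos; bars are group means, error bars SD, points the 2 or 3 libraries of a group. The 4 upper members are higher and the 4 lower members lower in morulae than at the 8/16-cell stage in the treatment in which each passed.

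These counts depend on single libraries. The 11 and 3 became 5 and 2 without NC morula replicate 1, 18 and 3 without NC morula replicate 2, and 6 and 5 without NC morula replicate 3. Over all genes tested, 1484 higher and 2142 lower became 936 and 1593, 1596 and 2061, and 1347 and 1932 in the same fits. Without either NC 8/16-cell library fewer members passed, and so did fewer of all genes tested. Those fits leave 1 library in the group, which was taken to vary as the other groups do. MRPS18A (adjusted p = 0.0581) and MRPL17 (adjusted p = 0.0879) missed the threshold only without NC 8/16-cell replicate 1, among the alternatives run. With each library centred on the members, so that a difference is relative to the rest of the family, 8 were higher and 5 lower. Of all genes tested, 802 and 1670 were.

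In KD embryos fewer members passed between the stages. MRPS18A and MRPL3 rose, and MRPL17, MRPL22 and MRPL20 fell, so 2 of 78 were higher, against 5.22% of all genes tested, and 3 lower, against 14.8%. The median log2 difference was -0.23, with 21 positive and 57 negative, where 62.5% of all genes tested were negative (median -0.18). Morula values lay all above the 8/16-cell values for 13 members, against 16.6% of all genes tested, and all below them for 24, against 36.7%. Next after the members that passed were MRPL38 (0.78), MRPL43 (0.68) and MRPL50 (0.63) among the positive differences, and MRPS6 (-0.94, adjusted p = 0.0514) and MRPL36 (-0.70, adjusted p = 0.0993) among the negative ones.

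MRPS18A stood at 28.6 and 27.2 FPKM in the 8/16-cell and at 66.6, 51.7 and 52.8 FPKM in the morula KD libraries (log2 difference 0.997, SE 0.20, limma adjusted p = 0.0096). MRPL3 stood at 12.1 and 11.5 FPKM and at 28.9, 20.6 and 22.9 FPKM (0.96, SE 0.24, adjusted p = 0.0211). All morula values of both lay above the 8/16-cell values. MRPL17 stood at 158 and 173 FPKM and at 87.9, 77.2 and 81.3 FPKM (-0.998, SE 0.21, adjusted p = 0.011), MRPL22, which lines the exit tunnel, at 78.8 and 56.5 FPKM and at 34.7, 29.9 and 39.1 FPKM (-0.94, SE 0.26, adjusted p = 0.031), and MRPL20, known as an early assembly protein in bacteria, at 158 and 144 FPKM and at 102, 86.8 and 99.1 FPKM (-0.65, SE 0.16, adjusted p = 0.0215). The stages did not overlap for these 3. MRPL22 overlaps a pseudogene in RefSeq.

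The KD counts depend on how libraries are scaled and on single libraries. The 2 higher and 3 lower became 14 and 0 with each library at an equal summed FPKM, and 8 and 2 with an equal sum that leaves out MIR2887-1, MIR2887-2 and RN18S1. They became 10 and 1 with median ratio scaling, 10 and 2 with quantile normalization, and 5 and 2 with each library centred on the members. Counts over all 11761 genes tested moved too. From 614 higher and 1741 lower they became, in the same order of settings, 1072 and 257, 700 and 639, 992 and 908, 1121 and 1027, and 406 and 396. MRPS18A and MRPL3 passed in each of these 5, while MRPL20 passed among them only with quantile normalization. Without KD 8/16-cell replicate 1 or replicate 2, which leaves 1 library in that group, the 5 calls were lost, and fewer of all genes tested passed. Without KD morula replicate 1 the counts were 1 and 2 (265 and 807 over all genes). Without KD morula replicate 2 they were 2 and 1 (360 and 1144 over all genes). Leaving out NC morula replicate 2, which enters only the shared estimate of spread, gave 7 and 7 (694 and 2004 over all genes). Leaving out NC morula replicate 1 gave 4 and 4 (597 and 1689), and NC morula replicate 3 gave 4 and 5 (598 and 1785).

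Of the 14 members that passed in NC embryos, 3 (MRPL3, MRPS18A and MRPL17) also passed in KD embryos, which is 21.4% of the NC calls and 60% of the KD calls. A total of 13 of the 14 had the same sign in KD embryos, the exception being MRPS33 at 0.82 in NC and -0.11 in KD. MRPL43 had log2 differences of 1.33 in NC and 0.68 in KD, MRPL54 of 1.18 and 0.48, MRPL38 of 0.83 and 0.78, MRPS5 of 0.60 and 0.61, and MRPL37 of -0.88 and -0.37. For 67 of 78 members the change was more positive in NC than in KD embryos. None of the members passed the test of that difference (the interaction, below), so a call in NC embryos that is lacking in KD embryos is not shown to differ between them.

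**Figure D3:**
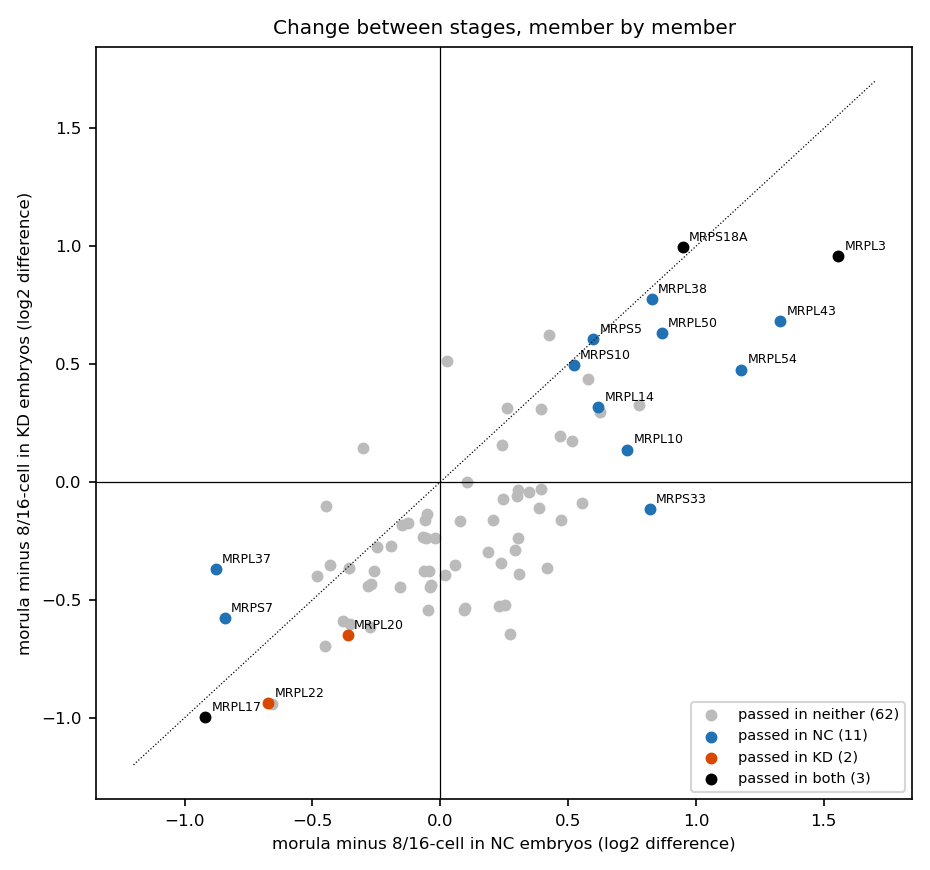
Log2 difference, morula minus 8/16-cell, of each member in NC (horizontal) and KD embryos (vertical), with members that passed in either named; the dotted line marks equal changes. MRPL3, MRPS18A and MRPL17 passed in both, and 67 of 78 members lie below the line.

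At the 8/16-cell stage, knockdown and control embryos showed no member that passed. In limma 0 of 78 were called, where 0.0170% of all genes tested (2 genes) were, and 1 member had an unadjusted p under 0.05, where 4.37% of all genes did. The log2 difference, KD minus NC, was positive for 61 and negative for 17 members (median 0.11), where 52.1% of all genes were positive (median 0.01). With each library at an equal summed FPKM 6 were positive (median -0.27), where the median of all genes was -0.32. The members' median lay above that of all genes as deposited and under each of the 4 rescalings run. Without KD 8/16-cell replicate 1 the members' median was -0.0309, below the 0.0279 of all genes. With any other 8/16-cell library left out it stayed above that of all genes. Both KD values lay above both NC values for 15 members, where 19.3% of all genes tested did so, and below them for 3, where 13.9% did.

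The largest positive values were those of MRPL23, at the exit tunnel, and MRPS33. MRPL23 stood at 51.5 and 33.9 FPKM in the NC and at 80.9 and 49.99 FPKM in the KD 8/16-cell libraries, which overlapped (log2 difference 0.60, 95% interval -0.11 to 1.30). MRPS33 stood at 34.6 and 38.6 FPKM in the NC and at 67.0 and 46.2 FPKM in the KD group, which did not (0.59, 0.04 to 1.15, limma adjusted p = 1). MRPL35 (0.56), MRPL13 (0.54) and MRPL33 (0.52) came next. MRPS12, a protein of the decoding site, was the most negative, at 46.2 and 43.9 FPKM in the NC and 37.8 and 26.4 FPKM in the KD libraries (-0.50, -1.07 to 0.08), before MRPL30 (-0.41), MRPL47 (-0.34), MRPS11 (-0.21) and MRPS22 (-0.19). For 73 of 78 members the difference was under 0.5 in size, with a median SE of 0.26.

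In morulae no member passed the limma test either, and the values leaned the other way. Of 78 members 0 were called, where 0.697% of all genes tested were; 6 had an unadjusted p under 0.05, where 21.2% of all genes did. The log2 difference was negative for 57 and positive for 21 members (median -0.11), where 57.9% of all genes were negative (median -0.08). With quantile normalization 42 members were positive (median 0.022, beside -0.000789 over all genes), while under the other 3 rescalings the members' median stayed below that of all genes. It was -0.0265 without NC morula replicate 1 (all genes -0.0424), -0.00634 without NC morula replicate 3 (-0.081) and -0.0645 without KD morula replicate 2 (-0.0884), so above that of all genes. With any other morula library left out it stayed below. For 0 members all KD values lay above all NC values, where 8.44% of all genes tested did so, and for 3, MRPL47, MRPL19 and MRPS21, they lay below, where 15.3% did.

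Same-numbered morula libraries of the treatments varied together (see the processing), so a blocked fit, with the replicate number as a term, is given beside these results. With it 1 member, MRPL47, was called lower and 0 higher, where 8.00% of all genes tested were lower and 3.89% higher. Within the pairs, 68 members were lower in KD in pair 1, 28 in pair 2 and 62 in pair 3, and the members' median differences were -0.27, 0.10 and -0.25, beside -0.12, 0 and -0.11 for all genes. Only 23 members were lower in all 3 pairs, where 32.0% of all genes were, and 3 (MRPL37, MRPS11 and MRPS2) were higher in all 3, where 19.9% of all genes were.

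MRPL47, a relative of a bacterial protein at the tunnel exit, had the most negative value. It stood at 36.6, 27.8 and 40.9 FPKM in NC and at 19.0, 16.4 and 16.3 FPKM in KD morulae. Every KD library was below every NC library, and the log2 difference was -0.97 (SE 0.20, 95% interval -1.41 to -0.53), 1.96-fold lower. Its limma adjusted p was 0.0562, just above the threshold, and 0.00719 with the replicate block; over the alternatives it ranged from 0.00719 to 0.229, and it passed in 3 of 21 (the block, a filter at 5 FPKM and the fit without KD morula replicate 1). At the 8/16-cell stage MRPL47 stood at 37.6 and 27.8 FPKM in the NC and 29.7 and 21.5 FPKM in the KD group, which overlapped.

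MRPL47 overlaps ACTL6A in RefSeq, a gene for a subunit of chromatin remodelling complexes, and strandedness is not given in the sources used here. ACTL6A stood at 33.5, 22.7 and 19.6 FPKM in NC and at 18.7, 15.6 and 12.3 FPKM in KD morulae (log2 difference -0.65, SE 0.23, limma adjusted p = 0.144, 0.026 with the replicate block). Its KD values were also all below its NC values. Reads shared by the 2 genes cannot be told apart in this table.

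**Figure D4:**
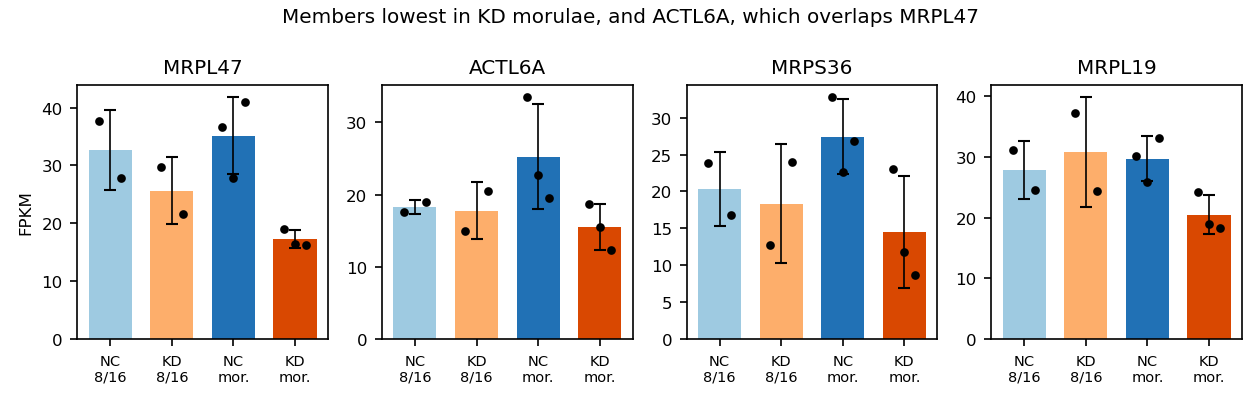
FPKM of MRPL47, of ACTL6A, which overlaps it, of MRPS36 and of MRPL19 in the 4 groups; bars are means, error bars SD, points libraries. The KD morula values of MRPL47 lie between 16.3 and 19.0 FPKM, all below the NC morula values.

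MRPS36, which is no ribosomal subunit, had the same size of difference with far more spread. It stood at 32.8, 22.7 and 26.8 FPKM in NC and at 23.1, 11.8 and 8.63 FPKM in KD morulae, which overlapped (log2 difference -0.97, SE 0.34, limma adjusted p = 0.143, 0.0511 with the replicate block). Without KD morula replicate 1, its highest KD library, the difference came to -1.34 (limma adjusted p = 0.0426), and MRPS36 and MRPL47 were then the 2 members called lower. MRPL19 stood at 30.1, 25.8 and 33.2 FPKM in NC and at 24.2, 18.9 and 18.3 FPKM in KD (-0.52, SE 0.20, adjusted p = 0.177), and MRPS21 at 17.6, 12.6 and 15.4 FPKM and at 12.4, 9.82 and 9.40 FPKM (-0.49, SE 0.18, adjusted p = 0.169). These groups did not overlap, yet neither passed. MRPL15 had a difference of -0.57 and MRPS35 of -0.51, and the largest positive values were those of MRPL37 (0.43), MRPS11 (0.27), MRPS7 (0.22), MRPS2 (0.18) and MRPL58 (0.18), a peptidyl-tRNA hydrolase of the large subunit.

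**Figure D5:**
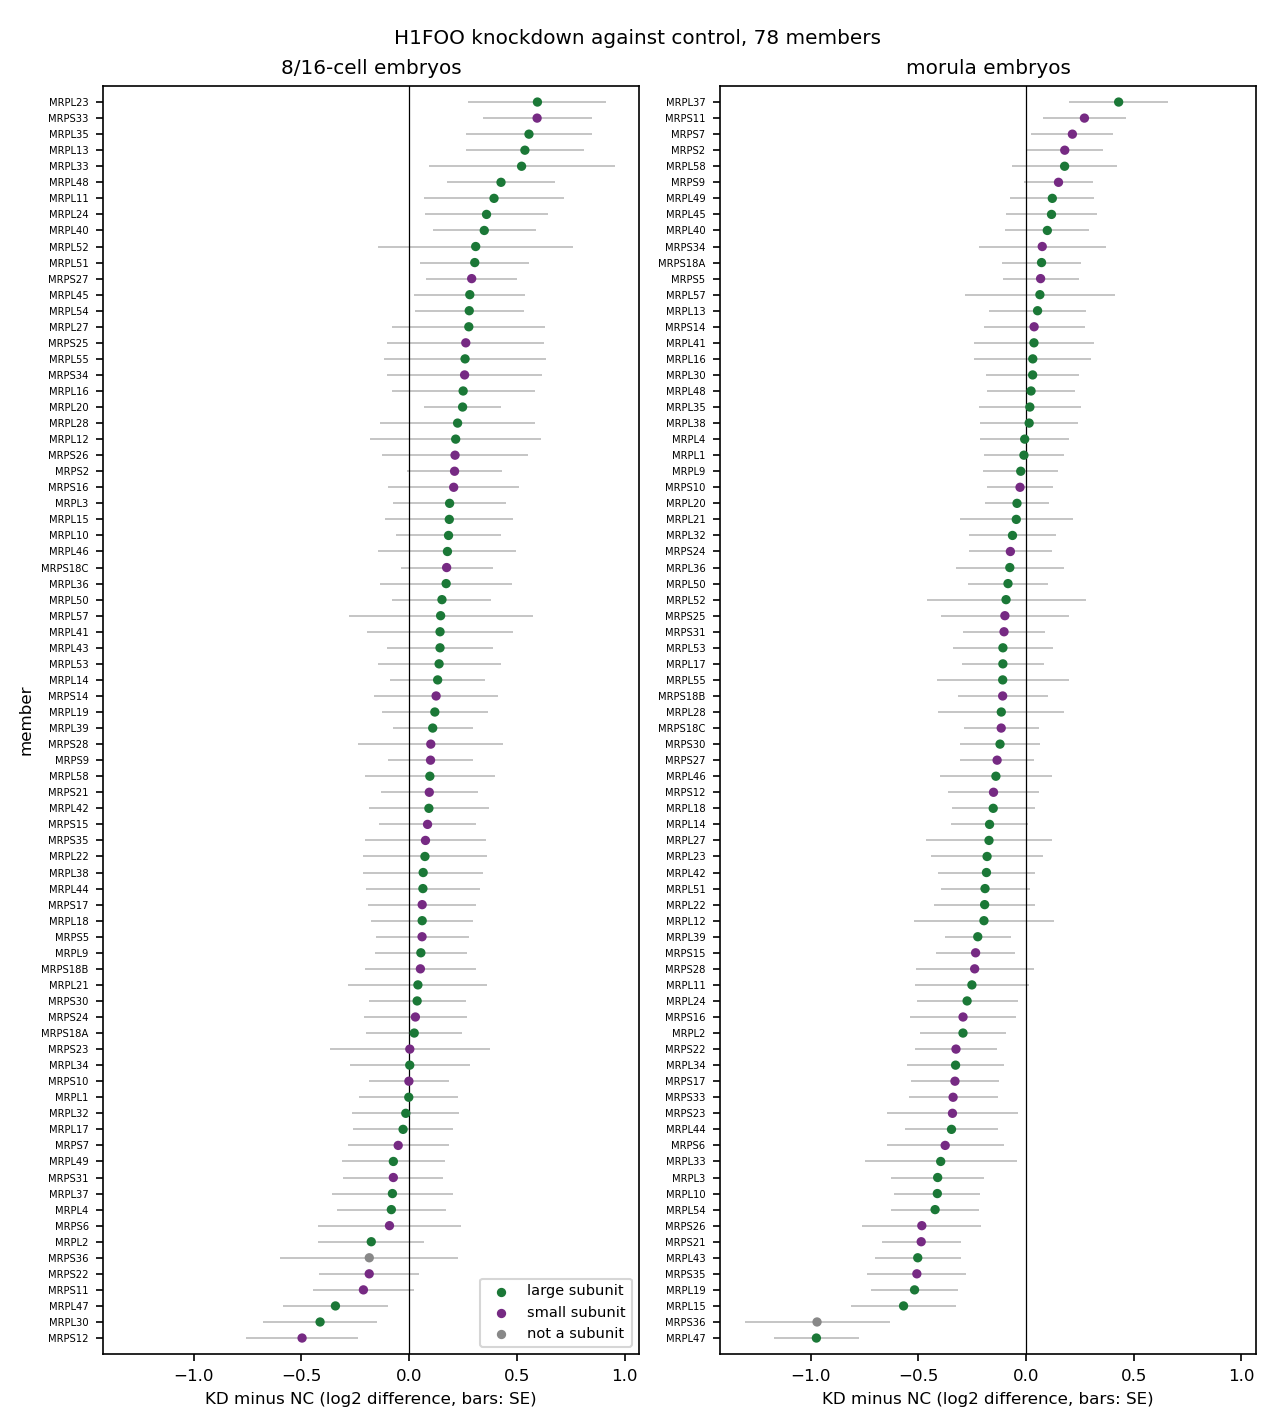
Log2 difference, KD minus NC, of each member at the 8/16-cell stage (left) and in morulae (right), ordered by size, with SE bars; colours give the place of the protein. Most values are above 0 at the 8/16-cell stage (61 of 78) and below 0 in morulae (57 of 78), and none passed in limma.

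The effect of the knockdown was compared between the stages by the interaction, the KD minus NC difference in morulae less that at the 8/16-cell stage. In limma 0 of 78 members passed, where 0.0170% of all genes tested did, and 1 had an unadjusted p under 0.05, where 9.39% of all genes did. With the replicate block 0 passed as well, where 0.272% of all genes did. The interaction was negative for 67 and positive for 11 members (median -0.29), where 58.5% of all genes tested were negative (median -0.10). With each library at an equal summed FPKM 58 were positive (median 0.161, beside 0.29 over all genes). The members' median lay below that of all genes as deposited and under each of the 4 rescalings. Without KD 8/16-cell replicate 1 it did not, at -0.1036 beside -0.1052 over all genes. With any other library left out it stayed below. MRPS33 had the most negative value, at -0.93 (SE 0.33, 95% interval -1.65 to -0.21, adjusted p = 0.479), before MRPL33 (-0.92), MRPS36 (-0.78), MRPL23 (-0.78) and MRPL15 (-0.75), and MRPL37 the most positive, at 0.51, before MRPS11 (0.48), MRPL30 (0.44), MRPS12 (0.35) and MRPS7 (0.27).

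By subunit the medians between treatments lay close together and those between stages further apart. The median log2 difference between KD and NC was 0.14 for the 51 large-subunit and 0.08 for the 26 small-subunit members at the 8/16-cell stage, and -0.11 and -0.12 in morulae. From the 8/16-cell stage to the morula it was 0.06 and 0.28 in control and -0.30 and -0.11 in knockdown embryos. In NC embryos 8 large-subunit members rose and 2 fell, and 3 small-subunit members rose and 1 fell; sorting by symbol gave 7 and 2, and 4 and 1. Members in the place of a bacterial protein and those in a place particular to mitochondria had NC stage medians of 0.14 and 0.08. Of the former 5 of 46 rose and of the latter 6 of 31, MRPS18A among them. Beside these counts by subunit and by class, 12.6% of all genes tested rose and 18.2% fell. No difference between these classes was tested.

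Parts of the large subunit differed in level more than in change. The 7 members of the central protuberance had a median mean of 86.8 FPKM, the 7 around the exit tunnel 54.7 FPKM and the 4 of the stalk 44.7 FPKM. Between the NC stages the stalk members MRPL10, MRPL11, MRPL12 and MRPL53 were all positive (median 0.32), with MRPL10 the only one that passed. MRPL12, which also binds the mitochondrial RNA polymerase, stood at 132 and 84.7 FPKM at the 8/16-cell stage and at 115, 68.8 and 155 FPKM in NC morulae, which overlapped (0.02, SE 0.36). Around the exit tunnel all 7 members were negative between the KD stages (median -0.52), where 62.5% of all genes tested were. The stages overlapped for some of them, such as MRPL23 (80.9 and 49.99 FPKM, then 40.5, 37.4 and 56.2 FPKM). Signs between the KD stages also depend on the scaling. With each library at an equal summed FPKM, 63 of the 78 members were positive, where 64.5% of all genes tested were. MRPL17 and MRPL22 passed, but not with each library at an equal summed FPKM (adjusted p = 0.156 and 0.178). MRPL44, MRPL45 (which tethers the ribosome to the inner membrane), MRPL16, MRPL27, MRPS16, MRPS22 and MRPS24, other members set to be described for their roles, passed in none of the 5 comparisons in limma without the replicate block.

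The other genes of mitochondrial translation likewise held calls between the stages in both directions. The 4 lists held 71 genes, of which 7 were not matched in the table and 62 were tested: subunits without an MRP symbol, translation factors, assembly and rRNA modification factors, and factors of mitochondrial DNA expression. Of these 62, 0 were called between KD and NC at either stage without the replicate block. With it 4 were called lower and 0 higher in KD morulae, where 8.00% of all genes tested were lower. Between the NC stages 10 rose and 4 fell, where 12.6% and 18.2% of all genes did, and between the KD stages 1 rose and 6 fell, where 5.22% and 14.8% did. The ribosomal subunits DAP3 and PTCD3, the elongation factor TUFM, the DNA packaging factor TFAM and the RNA polymerase POLRMT passed in no comparison between treatments and not between the NC stages.

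MTRF1L, a release factor that ends translation, fell most. It stood at 84.8 and 63.9 FPKM in the 8/16-cell and at 19.6, 23.4 and 34.4 FPKM in the morula NC libraries (log2 difference -1.52, SE 0.28, limma adjusted p = 0.0032), and by -1.42 between the KD stages (adjusted p = 0.0078). FASTKD2, an RNA-binding protein needed for the large ribosomal RNA, stood at 23.5 and 23.4 FPKM and at 8.89, 8.57 and 12.1 FPKM in NC (-1.18, adjusted p = 0.0034), and ELAC2, which trims transfer RNA ends, at 68.2 and 61.8 FPKM and at 32.5, 28.6 and 33.8 FPKM (-1.02, adjusted p = 0.0016). The elongation factors GFM1 (1.01, adjusted p = 0.0151) and TSFM (0.75, adjusted p = 0.0067), the assembly factor METTL17 (1.26, adjusted p = 0.0108) and LRPPRC, which stabilizes mitochondrial messages (0.50, adjusted p = 0.0264), rose in NC embryos. In morulae LONP1, a matrix protease, had a KD minus NC log2 difference of -0.88 (limma adjusted p = 0.0624, 0.00699 with the replicate block) and GUF1, a translation factor, of -0.83 (0.0724, 0.0139 with the block). The other two called lower with the block were HSD17B10, a subunit of mitochondrial RNase P (-0.67, adjusted p = 0.148, 0.0199 with the block), and MTERF3, a factor in ribosome assembly (-0.82, 0.107, 0.0464 with the block).

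The most similar gene groups had larger medians than the members between the treatments, and medians on either side of theirs between the stages. At the 8/16-cell stage the KD minus NC log2 difference was positive for 79 of 79 cytosolic ribosomal protein genes (median 0.22) and 72 of 81 oxidative phosphorylation subunits (median 0.22), and in morulae it was negative for 67 of 79 (median -0.14) and 72 of 81 (median -0.32). Of all genes tested, 52.1% were positive at the 8/16-cell stage and 57.9% negative in morulae. None of the genes of these 2 lists passed in limma at either stage. With the replicate block 15 oxidative phosphorylation subunits and 1 mitochondrial ribosomal protein gene were called lower in morulae, where 8.00% of all genes tested were. Between the NC stages 38 oxidative phosphorylation subunits rose and 2 fell (median 0.77), against 11 and 3 members (median 0.10) and 0 and 1 cytosolic ribosomal protein genes (median 0.06). Between the KD stages the counts were 6 and 1 (median 0.16), 2 and 3 (median -0.23) and 0 and 1 (median -0.29). Of all genes tested, 12.6% rose and 18.2% fell between the NC stages, and 5.22% and 14.8% between the KD stages. No difference between these lists was tested.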

How the data were processed

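The tools named in the submitters' processing notes are HISAT2, Cufflinks, featureCounts and Trimmomatic, and the builds ARS-UCD1.2 and bosTau9; their versions and order are not given in the sources used here. The deposited values are FPKM in a table of 39911 lines, scaled by the authors to gene length and library size. No counts were analysed, so read depth is unknown, and the precision of each value is known only from the 2 or 3 libraries of a group. Per the labels' protocols, messenger RNA was taken on oligo(dT) beads; strandedness is not given in the sources used here. All data columns were matched to their samples by name.

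A total of 81 symbols stood on several lines and were left out, which left 28700 genes. For all 81 the 8/16-cell columns repeat 1 set of values, while for only 6 the morula columns do, so the columns of the stages were probably made apart.

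Genes whose mean over the libraries reached 1 FPKM, 11761 in all, were tested on log2(FPKM + 1). The limma package (3.58.1, R 4.3.3, limma-trend, 6 residual and 4.63 prior degrees of freedom) fitted 4 group means to all 10 libraries, and two-sided p-values were adjusted by Benjamini and Hochberg over all genes, with a gene called at an adjusted p under 0.05. A log2 difference understates the change of low genes. Since FPKM scales to the library, every change is relative to the other transcripts in it. Simulated data were used to test only the fit of KD against NC in morulae, with and without the block. They held independent noise, with no pairing and no shift of whole libraries. The other comparisons were not simulated. The members and the lists were chosen with earlier results of these data known, so they give no independent support to a pattern seen in them. Members are named where they are among the 5 highest or lowest by mean, among the 8 largest called or 5 largest differences of a comparison in each direction, among the 8 with the smallest p that were called only with the block, or listed for their role.

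Replicate numbers are shared between treatments. Within morulae, KD and NC libraries of the same number deviated together from their group means (correlation across genes r = 0.37, 0.325 and 0.312), which was taken as pairing; the labels do not state it. The block was the stage with the replicate number for comparisons of treatments and the replicate number for those of stages. Alternatives were pseudocounts of 0.1 and 5, no filter and a filter at 5 FPKM, 4 rescalings, centring on the members (added after seeing the data), only the groups compared, the block, and leaving out each library (those outside the groups compared were added after seeing the data). Promoter motifs and protein features were planned and not run, since no sequence table was used here.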

Additional observations from a re-analysis of the deposited data

How the results depend on the processing

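Members called between KD and NC and in the interaction stayed at 0 in each direction under the alternatives run, except in morulae, where 1 was called lower with a filter at 5 FPKM and 1 with the replicate block, and 0 to 2 when a library was left out. Centring on the members puts their medians near 0 by construction, and an equal summed FPKM moved all genes too (median -0.323 at the 8/16-cell stage). For KD against NC at the 8/16-cell stage the median was -0.273 with an equal summed FPKM, -0.00217 with an equal sum that leaves out MIR2887-1, MIR2887-2 and RN18S1, and -0.00718 with each library centred on the members; leaving out a library gave -0.0309 to 0.289. In morulae it was 0.022 with quantile normalization and 0.038 when centred, and -0.336 to -0.00634 without a library. The interaction median was 0.161 with an equal sum and -0.0121 when centred, and -0.5 to -0.104 without a library. Between the NC stages, members called higher were 7 with no filter, 6 with only the groups compared and 8 when centred. They were 13 with the equal sum that leaves out MIR2887-1, MIR2887-2 and RN18S1, 13 with median ratio scaling and 14 with quantile normalization. With the replicate block 14 were higher and 7 lower, and without an NC morula library 5 to 18 and 2 to 5. Members called lower were 5 when centred, 1 with only the groups compared and 3 or 4 under the 4 rescalings. The median was -0.0331 when centred (0.00487 to 0.371 without a library). Of all genes tested, 1364, 1847 and 1857 were higher with that equal sum, median ratio scaling and quantile normalization, and 1051 with only the groups compared. Between the KD stages, members called higher were 6 with a filter at 5 FPKM, 14 with an equal sum, 8 with the equal sum that leaves out MIR2887-1, MIR2887-2 and RN18S1, 10 with median ratio scaling, 10 with quantile normalization, 5 when centred, 4 with only the groups compared and 7 with the replicate block (0 to 7 without a library). Members called lower were 0 with an equal sum, 1 with median ratio scaling, 6 with only the groups compared and 17 with the replicate block (0 to 7 without a library). The median was 0.234 with an equal sum and -0.00665 with quantile normalization (-0.377 to -0.0463 without a library). Counts over all genes tested moved under these rescalings too, as given above with the KD counts. Between the KD stages they were 1082 higher and 2447 lower with the replicate block, and 429 and 1253 with only the groups compared. With a filter at 5 FPKM they were 484 and 1361, of 7710 genes tested. Many single differences changed sign under some alternative. At the 8/16-cell stage, positive members went from 61 to 6 with an equal summed FPKM. Examples among named members were MRPL33 at the 8/16-cell stage without KD replicate 1 (-0.026, range without a library -0.026 to 1.07) and MRPS22 there without NC replicate 1 (0.00786, range -0.379 to 0.00786). Others were MRPL58 in morulae without NC replicate 2 (-0.047, range -0.047 to 0.361) and MRPS18C between the KD stages with an equal sum (0.0239). The cause of these changes was not tested. Libraries of the same number correlated at r = 0.0558 at the 8/16-cell stage and at -0.0324 to 0.255 across the stages. That was not taken as pairing, although 2 libraries in a group cannot decide it. The block counts there are therefore a description only. With the block more of all genes tested were called too. Between the NC stages 1484 higher and 2142 lower became 2018 and 2574. Between the KD stages 614 and 1741 became 1082 and 2447. Members that passed only with the block there were, between the NC stages, MRPL22 (log2 difference -0.83), MRPS22 (0.59), MRPL34 (0.59), MRPL58 (-0.57), MRPL27 (0.60), MRPL18 (-0.50) and MRPL20 (-0.39). Between the KD stages the 8 with the smallest blocked p were MRPL28 (-0.81), MRPL18 (-0.71), MRPL33 (-0.87), MRPL40 (-0.69), MRPS7 (-0.70), MRPL43 (0.71), MRPS18C (-0.55) and MRPL23 (-0.64).

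With 2 or 3 libraries in a group and a median SE of 0.26 at the 8/16-cell stage and 0.21 in morulae, differences of the size of most members' values could not be told from the spread. Depth is unknown, so counting error is not known for any value. Comparisons between the stages carry any difference in how their columns were made.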
